A study of Mus musculus with 8 samples.

Results

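The chromatin remodelers other than SWI/SNF were followed in macrophages labelled as knockout for Baf60a, a SWI/SNF subunit. The set holds 45 genes for subunits of the ISWI, CHD, NuRD, INO80, SRCAP and TIP60 complexes, together with Hells and Atrx. It was chosen by gene name, and each symbol was matched through its Ensembl identifier in the GENCODE M21 annotation; all 45 symbols were found among the 55421 gene identifiers of the expression table. Transcript levels of the set were close in Baf60a KO and WT cells. The gene Chd9, a member of the CHD family of ATPases, rose to 38.7 ± 2.54 TPM in Baf60a KO libraries, against 32.2 ± 1.37 TPM in WT libraries (SD, n = 4 each), and this call was lost without any 1 of 7 of the 8 libraries and under 2 of 3 other scalings. The other 43 genes that could be tested did not pass.

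The libraries were made from primary bone marrow derived macrophages (BMDMs) of C57 mice, cells grown out of marrow for 7 days under conditions that favour the macrophage lineage. There are 4 libraries of the genotype Baf60a KO and 4 of the genotype WT. Both groups had the same differentiation treatment and the same time point. The way Baf60a was deleted, and in which cells, is not given in the sources used here. Nothing in the labels ties a library to a mouse or culture of its own, so p-values reflect only the spread between these libraries, which may be technical.

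Chromatin remodelers are ATP-driven enzymes of the SNF2 family that slide, evict, space or exchange nucleosomes. ISWI and CHD1 type enzymes mainly space nucleosomes along DNA. The NuRD complex joins a CHD ATPase to histone deacetylases and represses or tunes enhancers, including inflammatory ones in macrophages. INO80, SRCAP and TIP60 act on nucleosomes with the histone variant H2A.Z, and SWI/SNF, the family that Baf60a belongs to, opens sites at which macrophage transcription factors bind.

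Expression is given as TPM, a transcript abundance that is corrected for transcript length and has an equal total in all libraries. A gene entered the test where 4 or more libraries had it above 1 TPM, on the scale log2(TPM + 1), with limma and Benjamini-Hochberg adjustment over the 13933 such genes. A log2 fold change is the mean of the Baf60a KO libraries minus the mean of the WT libraries on that scale, and a gene is said to have risen or fallen where the adjusted p was under 0.05. Of all genes tested, 782 (5.61%) passed, of which 613 (4.4%) were higher in Baf60a KO and 169 (1.21%) were lower. The median log2 fold change over all genes tested was 0.03.

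Smarcd1, the gene of Baf60a (chr15:99702129-99713991, build mm10), was measured at 10.79, 10.27, 10.85 and 9.91 TPM in the Baf60a KO libraries and at 16.25, 14.29, 14.76 and 14.01 TPM in the WT libraries. The groups did not overlap (log2 fold change -0.47, SE 0.061, limma adjusted p = 0.00756). Whether the transcripts that remain include the deleted segment cannot be read from values per gene. Between 13833 and 13991 genes were over 1 TPM in Baf60a KO libraries and between 13727 and 14027 in WT libraries. The depth of single libraries is unknown. Processed pseudogenes held 7.48% to 8.38% of TPM in Baf60a KO libraries and 6.78% to 12.2% in WT libraries, with the high values in WT libraries 3 and 4. Of 7 macrophage marker genes, all tested, Cd68 and Itgam rose, Lyz2 fell and 4 did not pass (42.9% called, beside 5.61% of all genes tested). Of the 4 that did not pass, Adgre1 was at 308 ± 12.8 TPM in Baf60a KO and 273 ± 21.9 TPM in WT. Csf1r was at 117 ± 3.40 TPM in Baf60a KO and 100.03 ± 8.27 TPM in WT. The summed TPM of the 7 was 4112 to 4448 in Baf60a KO libraries and 5618 to 6513 in WT libraries, and that of the 6 without Lyz2, all with a log2 fold change above 0, was 2303 to 2401 in Baf60a KO libraries and 1796 to 2204 in WT libraries. Among 7 stromal markers, Col1a1, Col3a1, Pdgfrb, Thy1, Acta2 and Cnn1 rose and Col1a2 did not pass (85.7% called, beside 5.61% of all genes tested). The summed TPM of the 7 stromal markers was 5646 to 5961 in Baf60a KO libraries and 4480 to 4959 in WT libraries. Single stromal markers differed widely in level. Thy1 was at 7.6 ± 0.84 TPM in Baf60a KO and 3.1 ± 0.20 TPM in WT. Col1a1 was at 1873 ± 54.0 TPM in Baf60a KO and 1534 ± 76.1 TPM in WT, above Adgre1 and Csf1r. Of 6 cycling markers Pcna rose and 5 did not pass, with sums of 656 to 709 TPM in Baf60a KO libraries and 557 to 639 TPM in WT libraries. The other 5, all with a log2 fold change below 0, summed to 203 to 216 TPM in Baf60a KO libraries and 207 to 241 TPM in WT libraries. Neutrophil markers, 4 of 6 tested and 0 passing, summed to 146 to 233 TPM in Baf60a KO libraries and to 191 to 283 TPM in WT libraries. Of 3 dendritic cell markers 1 was tested and did not pass. B cell and T cell markers stayed under 1 TPM for each list in every library, and Cd3d was listed at 0 in all 4 Baf60a KO libraries. In bulk RNA, fewer cells of a type and less RNA per cell cannot be told apart. The part of these marker differences in the values below was not tested.

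The remodeler genes lie on 17 chromosomes, and a feature that the selection did not use, the number of CG dinucleotides in front of their starts, was high for most of those with a promoter sequence. RefSeq promoter windows (GRCm38.p6, the assembly of mm10) were available for 30 of the 45 genes, giving 36 windows of 250 bases before a transcription start. The motif counted was CG, which reads the same on both strands and cannot overlap itself. The median window of the set held 18.5 CG, against 6 over all 32851 windows of the table, and 30 of the 36 windows held 10 or more, against 37.8% of all windows. All windows were counted whatever the level of their gene in these cells. The windows of the genes tested were not counted apart, so the difference is not shown to be particular to remodelers. At least 1 CG was present in 36 of 36 windows and in 92.1% of all windows. The windows of these genes ranged from 1 to 39 CG, and 6 windows, of Chd9, Baz2b, Atrx, Ruvbl1, Smarca1 and Ruvbl2, held 8 or fewer. The sequences below were taken from the 13 windows that touch no annotated exon and show this range: the richest window, in front of Mta1, those of the ATPase genes Chd4 and Ino80, and the poorest, at an internal start of Chd9. Capitals mark each CG, and each run is 5′ to 3′ on the strand of its gene.
Mta1 (chr12:113098028-113098277, plus strand, 39 CG): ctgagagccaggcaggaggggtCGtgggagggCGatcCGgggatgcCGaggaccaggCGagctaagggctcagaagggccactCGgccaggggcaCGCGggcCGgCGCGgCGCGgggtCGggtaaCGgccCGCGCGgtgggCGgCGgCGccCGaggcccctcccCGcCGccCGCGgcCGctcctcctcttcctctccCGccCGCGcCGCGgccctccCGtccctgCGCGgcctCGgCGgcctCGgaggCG
Ino80 (chr2:119477688-119477937, minus strand, 28 CG): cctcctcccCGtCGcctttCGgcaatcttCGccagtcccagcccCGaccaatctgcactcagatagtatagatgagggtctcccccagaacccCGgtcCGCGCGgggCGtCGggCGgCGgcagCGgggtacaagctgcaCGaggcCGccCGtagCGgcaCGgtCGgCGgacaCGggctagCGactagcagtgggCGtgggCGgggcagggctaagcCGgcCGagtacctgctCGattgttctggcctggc
Chd4 (chr6:125095731-125095980, plus strand, 12 CG): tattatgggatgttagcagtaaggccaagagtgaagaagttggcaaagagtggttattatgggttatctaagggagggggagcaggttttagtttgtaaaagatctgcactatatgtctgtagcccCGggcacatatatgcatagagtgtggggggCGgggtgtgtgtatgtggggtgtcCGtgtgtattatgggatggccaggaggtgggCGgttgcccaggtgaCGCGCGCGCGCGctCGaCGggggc
Chd9 (chr8:90931999-90932248, plus strand, 1 CG): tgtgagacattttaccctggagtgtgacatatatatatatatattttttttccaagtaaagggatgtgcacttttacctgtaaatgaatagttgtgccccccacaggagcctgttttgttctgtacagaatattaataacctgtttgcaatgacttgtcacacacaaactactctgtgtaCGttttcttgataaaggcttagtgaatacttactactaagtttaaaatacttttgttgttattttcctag

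The runs of capitals in the Mta1 and Ino80 windows stand against the single CG of the Chd9 window. The other RefSeq window of Chd9, at chr8:90828585-90828834, held 16 CG and overlaps an annotated exon, so it is not printed. Which of these starts was used in the libraries cannot be read from a gene-level TPM.

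All families were present in the cells, and single genes differed widely in level. Averaged over the 8 libraries, 11 of the 45 genes were over 50 TPM, 16 were between 20 and 50 TPM, 16 were between 2 and 20 TPM and 2 were under 2 TPM. TPM is corrected for length, and on that basis these levels were set side by side. They are less certain for the 9 genes that share much sequence with others, described below. Long and short genes also moved apart in some libraries. The NuRD genes, without the ATPases Chd3 and Chd4, which were counted with the CHD genes, had the highest median, 53.5 TPM. The medians of the other families were close to each other. They were 22.5 for INO80 genes, 21.2 for CHD genes, 20.7 for SRCAP and TIP60 genes, 20.4 for the ISWI genes tested and 19.7 for Hells and Atrx. Rbbp7, a histone-binding subunit, was the highest of the set and stood at the 92.0 percentile of all genes tested. Chd3 and Mbd3 came next. Smarca1 and Cecr2 were the lowest. The TPM of the 45 genes summed to 1487 ± 18.9 in Baf60a KO libraries and 1472 ± 69.1 in WT libraries (SD, n = 4 each), and the range of 1474 to 1515 in Baf60a KO lay inside that of 1397 to 1563 in WT.

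**Figure D1:**
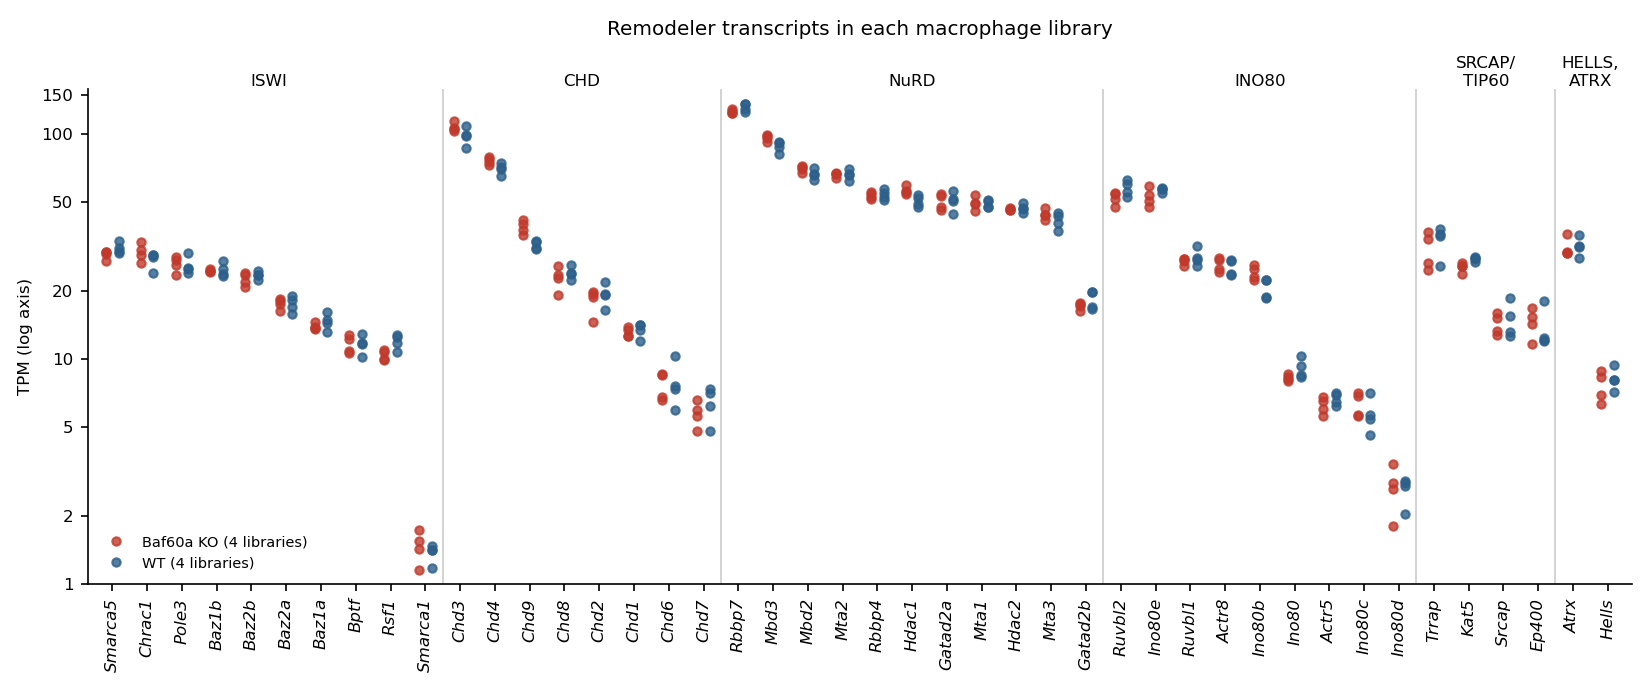
Levels of 44 remodeler genes in each library. The vertical axis is TPM on a log scale, each point is 1 library, red for Baf60a KO (left of each gene) and blue for WT; genes are ordered by level within each family. Cecr2, at 0.05 TPM or less in every library, is not drawn. The points of both genotypes lie over each other for nearly every gene, and Chd9, Hdac1 and Kat5 are the genes whose groups do not overlap.

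Of the 44 genes tested, 1 rose, 0 fell and 43 did not pass, which is 2.27% called beside the 5.61% over all genes tested. An unadjusted p under 0.05 was found for 7 of the 44 (15.9%), Rsf1, Chd4, Chd9, Hdac1, Mbd3, Ino80b and Kat5, against 22.3% of all genes tested. The libraries of both genotypes did not overlap for 3 genes (6.82%), against 15.8% of all genes tested: Chd9 and Hdac1 were higher in all Baf60a KO libraries (11.9% of all genes were), and Kat5 was lower in all of them (3.96% of all genes were). The log2 fold changes ran between -0.19 for Rsf1 and 0.26 for Chd9, with 17 above 0 and 27 below 0, and their median was -0.01. The median size without regard to sign was 0.08, against 0.10 over all genes tested.

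In the fit reported, the intervals show how large a difference between these libraries could have gone unseen. They rest on the spread between libraries, which may be technical, and on 1 scaling, and intervals of the alternative fits are not given here. The 95% interval of the log2 fold change lay within -0.5 and 0.5 for all 44 genes, against 79.2% of all genes tested, and within -0.25 and 0.25 for 23 of them (52.3%), against 36.1% of all genes tested. Trrap had the lowest interval bound, -0.48, and Ep400 the highest, 0.43. These bounds describe levels of RNA in the whole culture and say nothing of protein.

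**Figure D2:**
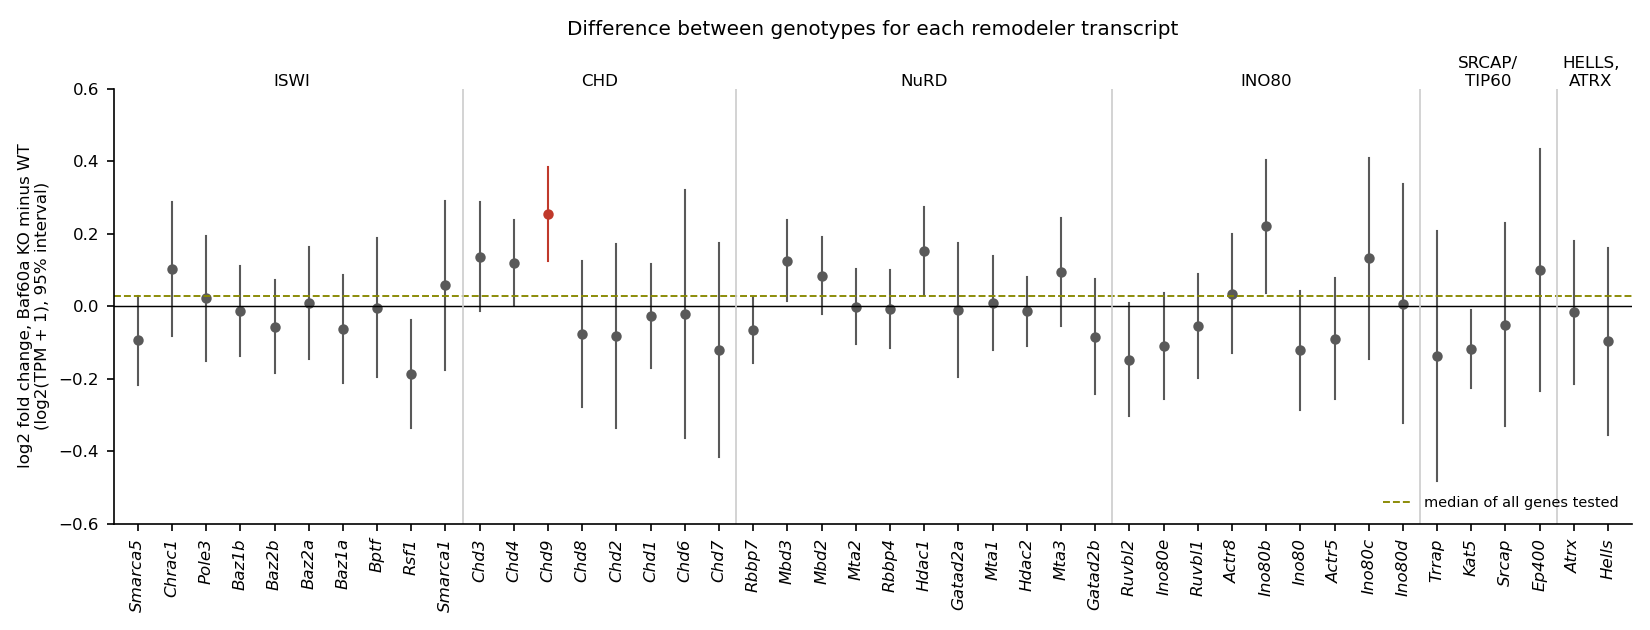
Log2 fold change of 44 remodeler genes, Baf60a KO minus WT on the log2(TPM + 1) scale. Points are estimates and bars 95% intervals from limma; the dashed line is the median of all genes tested (0.03) and red marks the gene that passed, Chd9. The bars of 43 genes are grey, and none of the 44 bars reaches 0.5 or -0.5.

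In the ISWI family, 0 of 10 genes tested passed, with a median log2 fold change of -0.01. Smarca5, the main ISWI ATPase (chr8:80698507-80739497), was at 27.35, 30.03, 29.90 and 29.28 TPM in Baf60a KO libraries and at 31.17, 33.68, 29.59 and 30.30 TPM in WT libraries. The groups overlapped, and the log2 fold change of -0.09 did not pass (SE 0.054, limma adjusted p = 0.351). Its paralog Smarca1, the ATPase of the NURF complex, was just above the filter on low values, at 1.43, 1.55, 1.74 and 1.15 TPM in Baf60a KO libraries and 1.47, 1.17, 1.41 and 1.41 TPM in WT libraries. Smarca1 was thus at 0.0503 of the level of Smarca5 in Baf60a KO libraries and at 0.0440 of it in WT libraries. Smarca5 shares sequence with 7 other genes, and levels were looked up for 6 of them, all pseudogenes. The most abundant of these 6, Gm13136, was at 1.86 ± 0.0927 TPM in Baf60a KO libraries and 2.17 ± 0.858 TPM in WT libraries.

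Most partners that give the ISWI ATPases their targets were at middle levels, and Cecr2 was at or near 0. Baz1b, the partner in the WICH complex, was at 24.7 ± 0.331 TPM in Baf60a KO libraries and 25.0 ± 1.76 TPM in WT libraries. Baz1a, the ACF and CHRAC partner, was at 14.0 ± 0.418 TPM in Baf60a KO and 14.7 ± 1.25 TPM in WT. Baz2a, the NoRC partner that acts on silent ribosomal DNA, stood at 17.7 ± 0.951 TPM in Baf60a KO and 17.6 ± 1.42 TPM in WT. None of these genes passed the test, and the groups of each overlapped. Baz2b, a relative of Baz2a, was at 22.7 ± 1.48 TPM in Baf60a KO and 23.6 ± 0.850 TPM in WT. Bptf, the large histone-reading subunit of NURF, was at 11.6 ± 1.05 TPM in Baf60a KO and 11.7 ± 1.13 TPM in WT. The histone-fold subunits of CHRAC were also close, with Chrac1 at 29.9 ± 2.71 TPM in Baf60a KO and 27.7 ± 2.35 TPM in WT, and Pole3 at 26.5 ± 1.98 TPM in Baf60a KO and 26.1 ± 2.35 TPM in WT. Cecr2, the partner in the CERF complex, was listed at 0.01 to 0.05 TPM in Baf60a KO libraries and at 0 to 0.05 TPM in WT libraries and was not tested.

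Rsf1, the histone-binding partner of Smarca5 in the RSF complex (chr7:97579889-97692778), had the most negative log2 fold change of the set. It was at 10, 10.93, 10.74 and 9.91 TPM in Baf60a KO libraries and at 11.84, 12.77, 10.79 and 12.53 TPM in WT libraries. The WT library 3 value fell between the Baf60a KO values, so the groups overlapped, and the log2 fold change of -0.19 did not pass (SE 0.066, limma adjusted p = 0.138).

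In the CHD family, 1 of 8 genes tested rose, 0 fell and 7 did not pass, with a median log2 fold change of -0.02. Chd9, a chromodomain ATPase known as a partner of nuclear receptors (chr8:90828352-91054516, plus strand), was at 35.76, 37.51, 39.89 and 41.50 TPM in Baf60a KO libraries and at 33.46, 31.17, 30.89 and 33.31 TPM in WT libraries. Every Baf60a KO library was above every WT library. On the log2 scale the difference was 0.26 (SE 0.057, 95% interval 0.13 to 0.38, limma adjusted p = 0.0394). The estimate was positive in all 20 alternative fits and passed in 5 of them, with adjusted p between 0.0340 and 0.111. Leaving out WT library 1 kept the call, while leaving out any other single library ended it, with adjusted p up to 0.111 without Baf60a KO library 4. Median-of-ratios scaling (adjusted p = 0.0571) and quantile normalization (adjusted p = 0.0563) also ended it.

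The nearest relatives of Chd9 did not pass. Chd8, an ATPase known as a repressor of beta-catenin target genes, was at 23.0 ± 2.80 TPM in Baf60a KO libraries and 24.2 ± 1.57 TPM in WT libraries. Chd7, the gene mutated in CHARGE syndrome, was at 5.71 ± 0.754 TPM in Baf60a KO and 6.33 ± 1.14 TPM in WT. Chd6 was at 7.58 ± 1.08 TPM in Baf60a KO and 7.79 ± 1.83 TPM in WT. All 3 estimates were slightly below 0. The nucleosome-spacing enzyme Chd1 was at 13.2 ± 0.575 TPM in Baf60a KO and 13.5 ± 0.981 TPM in WT, and its relative Chd2 at 18.2 ± 2.40 TPM in Baf60a KO and 19.3 ± 2.30 TPM in WT.

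Both NuRD ATPases were abundant. Chd4, the most studied NuRD ATPase (chr6:125095981-125130591), was at 79.71, 72.85, 75.37 and 78.14 TPM in Baf60a KO libraries and at 71.31, 74.46, 65.14 and 70.51 TPM in WT libraries. The groups overlapped in that WT library 2 was above Baf60a KO library 2, and the log2 fold change of 0.12 did not pass (SE 0.051, limma adjusted p = 0.207). Chd3, its paralog, was higher than Chd4 in every library, at 107.29, 105.74, 104.18 and 114.82 TPM in Baf60a KO and 99.71, 108.64, 87.20 and 98.02 TPM in WT. Its log2 fold change of 0.14 did not pass either (SE 0.067, limma adjusted p = 0.268). The ratio of Chd3 to Chd4 was 1.41 in Baf60a KO libraries and 1.40 in WT libraries on average.

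**Figure D3:**
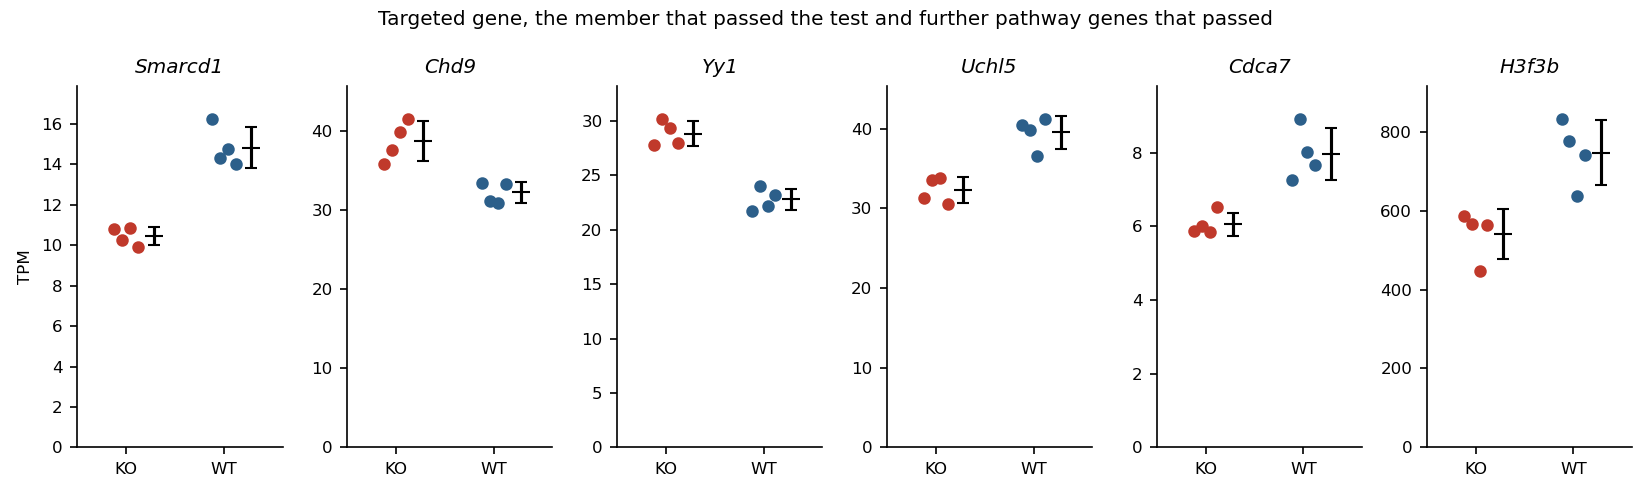
TPM in each library of the targeted gene Smarcd1, of Chd9 and of 4 further pathway genes that passed the test. Points are libraries, Baf60a KO (KO) left in red and WT right in blue; bars are mean and SD of 4 libraries, and each vertical axis starts at 0. In Chd9 the lowest Baf60a KO library is at 35.76 TPM and the highest WT library at 33.46 TPM.

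The non-ATPase core of NuRD gave the narrowest intervals of the set. Of its 11 genes, 0 passed, the median log2 fold change was -0.00, and 10 had a 95% interval within -0.25 and 0.25. The exception was Hdac1, whose interval reached 0.27. Hdac1, a deacetylase shared with other repressor complexes (chr4:129516104-129542713), was at 54.16, 55.18, 59.72 and 56.30 TPM in Baf60a KO libraries and at 48.83, 53.86, 52.35 and 47.54 TPM in WT libraries. The highest WT library lay just under the lowest Baf60a KO library. The log2 fold change of 0.15 did not pass (SE 0.053, limma adjusted p = 0.136). Its partner Hdac2 was at 46.5 ± 0.465 TPM in Baf60a KO libraries and 47.0 ± 2.02 TPM in WT libraries.

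None of the remaining NuRD subunits passed, and the groups of each overlapped. Mbd3, the methyl-binding domain protein that defines one form of NuRD, was at 96.8 ± 3.16 TPM in Baf60a KO and 88.8 ± 4.88 TPM in WT (log2 fold change 0.13, limma adjusted p = 0.174). Mbd2, which binds methylated DNA and defines the other form, was at 70.5 ± 2.12 TPM in Baf60a KO and 66.5 ± 3.42 TPM in WT. Of the scaffold genes, Mta1 was at 49.4 ± 3.50 TPM in Baf60a KO and 49.1 ± 1.78 TPM in WT, Mta2 at 66.1 ± 1.59 TPM in Baf60a KO and 66.2 ± 3.24 TPM in WT, and Mta3 at 44.2 ± 2.31 TPM in Baf60a KO and 41.4 ± 3.34 TPM in WT. Mta2 was the highest of the scaffold genes and Mta3 the lowest in both genotypes. The histone-binding Rbbp7 was at 127 ± 2.57 TPM in Baf60a KO and 133 ± 5.45 TPM in WT, and Rbbp4 at 53.5 ± 1.68 TPM in Baf60a KO and 53.9 ± 2.69 TPM in WT. Gatad2a, which bridges the MBD protein to the ATPase, was at 50.2 ± 3.99 TPM in Baf60a KO and 50.7 ± 4.91 TPM in WT. Its paralog Gatad2b was the lowest NuRD gene, at 17.2 ± 0.636 TPM in Baf60a KO and 18.4 ± 1.74 TPM in WT.

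The INO80 genes gave 0 calls among 9, and a median log2 fold change of -0.05. Ino80, the ATPase (chr2:119373042-119477687), was at 8.28, 8.17, 7.98 and 8.61 TPM in Baf60a KO libraries and at 9.31, 10.31, 8.29 and 8.51 TPM in WT libraries. The groups overlapped, with WT libraries 3 and 4 among the Baf60a KO values, and the log2 fold change of -0.12 did not pass (SE 0.072, limma adjusted p = 0.366). Ino80b, a small subunit (chr6:83121765-83125431), was at 25.07, 23.16, 26.11 and 22.59 TPM in Baf60a KO libraries and at 22.59, 22.60, 18.76 and 18.90 TPM in WT libraries. After Chd9 it had the highest log2 fold change of the set, 0.22, and did not pass (SE 0.081, limma adjusted p = 0.151).

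Ruvbl1 and Ruvbl2 encode the AAA+ ATPases that INO80, SRCAP and TIP60 share. Ruvbl2 was at 52.1 ± 3.38 TPM in Baf60a KO libraries and 57.9 ± 4.50 TPM in WT libraries (log2 fold change -0.15, limma adjusted p = 0.247), and Ruvbl1 at 27.2 ± 0.903 TPM in Baf60a KO and 28.4 ± 2.44 TPM in WT. The actin-related subunits that help INO80 hold nucleosomes were unequal in level, Actr8 at 26.3 ± 1.77 TPM in Baf60a KO and 25.7 ± 2.15 TPM in WT, and Actr5 at 6.20 ± 0.531 TPM in Baf60a KO and 6.65 ± 0.404 TPM in WT. Neither passed. Ino80e was at 52.7 ± 4.85 TPM in Baf60a KO and 56.8 ± 1.42 TPM in WT, Ino80c at 6.28 ± 0.766 TPM in Baf60a KO and 5.68 ± 1.04 TPM in WT, and Ino80d at 2.65 ± 0.656 TPM in Baf60a KO and 2.61 ± 0.382 TPM in WT. The level of these accessory subunits thus spanned a wide range inside each genotype, while the genotypes overlapped for each.

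Among the SRCAP and TIP60 genes, 0 of 4 passed, with a median log2 fold change of -0.09. Ep400, the ATPase of the TIP60 complex (chr5:110664373-110770717), was at 16.96, 14.38, 11.67 and 15.42 TPM in Baf60a KO libraries and at 11.97, 18.04, 12.19 and 12.37 TPM in WT libraries (log2 fold change 0.10, SE 0.147, limma adjusted p = 0.761). Srcap, the ATPase that exchanges H2A for H2A.Z (chr7:127511983-127561219), was at 15.27, 13.33, 12.78 and 16.06 TPM in Baf60a KO libraries and at 15.54, 18.66, 12.67 and 13.21 TPM in WT libraries (log2 fold change -0.05, SE 0.123, limma adjusted p = 0.867). For both genes WT library 2 was the highest of all 8, and the spread within a genotype was larger than the difference between genotypes. Trrap, the giant scaffold of TIP60, varied as widely, at 36.95, 26.73, 24.89 and 34.31 TPM in Baf60a KO libraries and 37.91, 35.21, 26.08 and 35.94 TPM in WT libraries. Kat5, the acetyltransferase of TIP60 (chr19:5603014-5610237), was at 26.01, 26.68, 23.88 and 25.83 TPM in Baf60a KO libraries and at 27.02, 28.10, 28.56 and 27.79 TPM in WT libraries. All 4 Baf60a KO values lay below all 4 WT values, and the log2 fold change of -0.12 did not pass (SE 0.047, limma adjusted p = 0.181).

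Hells, an ATPase needed for DNA methylation of repeats, was at 7.62 ± 1.19 TPM in Baf60a KO libraries and 8.19 ± 0.945 TPM in WT libraries. Atrx, which places a variant histone at repeats with its partner Daxx, was at 31.3 ± 3.15 TPM in Baf60a KO and 31.7 ± 3.11 TPM in WT. Neither passed, and the groups of each overlapped.

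Some remodeler subunits have a paralog that can take their place in a complex, while others, such as Ruvbl1 and Ruvbl2 or Hdac1 and Hdac2, can be found together. A ratio between such genes is therefore not always a measure of exchange. The ratio of the TPM of 2 genes within a library is not altered by how that library was scaled. For 15 pairs the log2 ratio of TPM + 1, which moves slightly with scaling where a gene is low, was compared between genotypes with an exact two-sided permutation test over the 8 libraries, whose smallest possible p is 0.0286. After Benjamini-Hochberg adjustment over the 15 pairs 0 passed, and a single pair at that smallest p adjusts to 0.429. At an unadjusted p under 0.05 there was 1 pair, Hdac2 over Hdac1. Its ratio was 0.869, 0.842, 0.775 and 0.817 in Baf60a KO libraries and 0.912, 0.918, 0.900 and 0.983 in WT libraries. The groups did not overlap, and the difference in mean log2 ratio was -0.17 (exact permutation p = 0.0286, adjusted p = 0.429), with the same p at a pseudocount of 0.5 and with none. The same Hdac1 values entered the comparison of Hdac1 alone, so the ratio is no second line of evidence. Chd8 over Chd9 had the largest difference of the 15 pairs, at 0.599 in Baf60a KO and 0.753 in WT (log2 difference -0.33, exact permutation p = 0.0857, adjusted p = 0.551), with overlapping groups. Ratios of the other 13 pairs overlapped between genotypes. Among them, Mta3 over Mta2 averaged 0.669 in Baf60a KO libraries and 0.626 in WT libraries, Rbbp7 over Rbbp4 averaged 2.37 in Baf60a KO and 2.47 in WT, and Mbd3 over Mbd2 averaged 1.37 in Baf60a KO and 1.34 in WT.

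**Figure D4:**
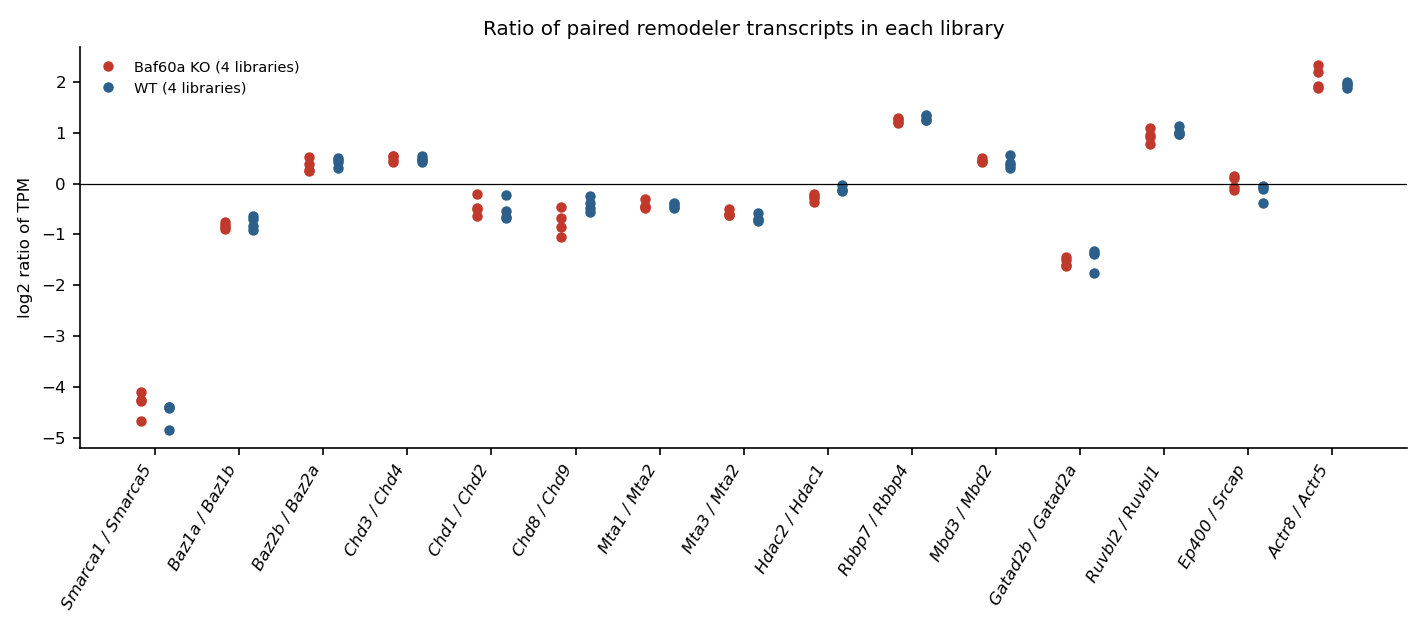
Log2 ratio of TPM for 15 pairs of remodeler genes, mostly paralogs, in each library. Points are libraries, red for Baf60a KO (left of each pair) and blue for WT; the line at 0 marks equal TPM. Smarca1 is far below Smarca5 in all 8 libraries, and Hdac2 over Hdac1 is the pair whose genotypes do not overlap.

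In some libraries most remodelers lay on the same side of their own mean, and long and short genes moved apart in some libraries. Neither pattern was tested. The longest coding transcript of these genes had a median of 6113 bases, against 3088.5 bases over all coding genes tested, between 871 for Chrac1 and 13675 for Ino80d. For each gene the deviation of log2(TPM + 1) from its mean over the 8 libraries was taken. Over the 22 tested genes with a transcript over 6000 bases, the median deviation was 0.06, -0.04, -0.08 and 0.06 in Baf60a KO libraries 1 to 4 and 0.05, 0.15, -0.14 and -0.05 in WT libraries 1 to 4. Over the 22 shorter genes it was -0.01, 0.01, 0.02 and 0.01 in Baf60a KO libraries and 0.01, 0.06, -0.03 and -0.05 in WT libraries. In WT library 2, 21 of the 22 long and 19 of the 22 shorter genes were above their own mean. In Baf60a KO library 3 this was 4 of the 22 long and 13 of the 22 shorter genes, and in WT library 3 it was 4 of the 22 long and 10 of the 22 shorter genes. The 1531 other tested genes with transcripts over 6000 bases moved in a similar way, with medians of 0.05, -0.00, -0.02 and 0.04 in Baf60a KO libraries and 0.01, 0.08, -0.11 and -0.05 in WT libraries. The 10241 other shorter genes had medians of 0.01, 0.02, 0.02 and 0.02 in Baf60a KO libraries and 0.01, 0.03, -0.08 and -0.04 in WT libraries. The lower values of WT libraries 3 and 4 were thus present at both lengths outside the remodelers. Chd9 is one of the long genes, at 12008 bases. In a fit with a term for the level of long transcripts in each library, chosen after seeing the data, its log2 fold change was 0.25 and did not pass (limma adjusted p = 0.0540), and 22 of the 44 genes were above 0 and 22 below 0.

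**Figure D5:**
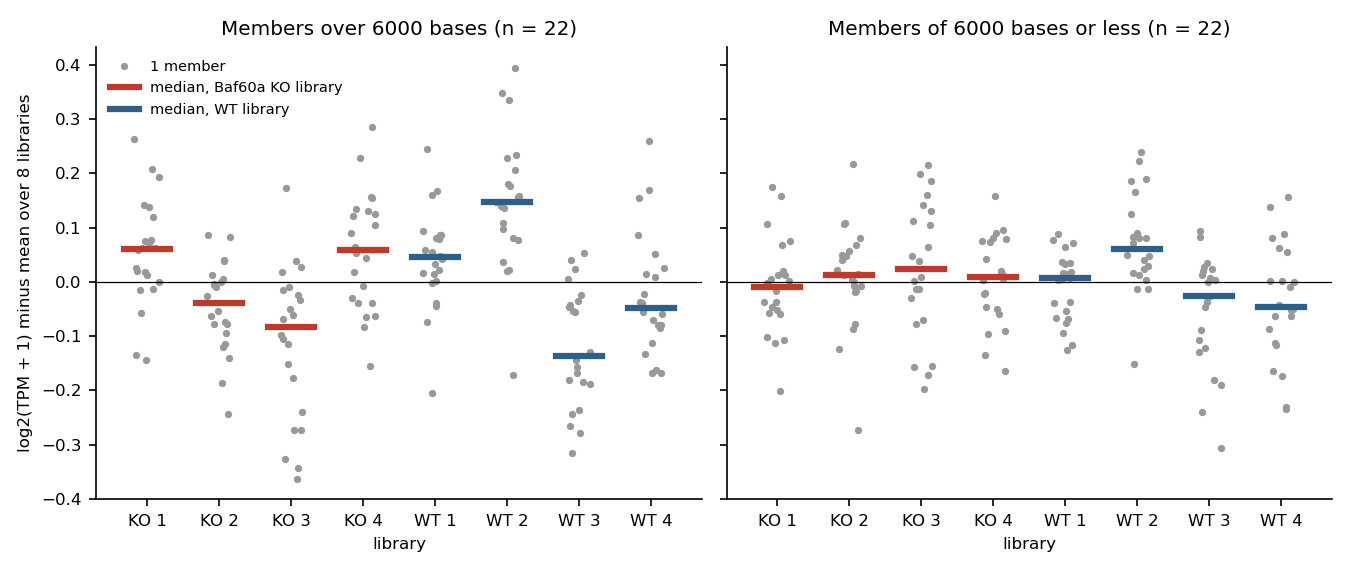
Deviation of each remodeler gene from its mean over the 8 libraries, on the log2(TPM + 1) scale, for genes with a longest coding transcript over 6000 bases (left) and for the others (right). Grey points are genes and bars are medians, red for Baf60a KO and blue for WT libraries. The long genes are mostly above 0 in WT library 2 (median 0.15) and mostly below it in WT library 3 (median -0.14); the medians of the shorter genes stay between -0.05 and 0.06.

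Reads of some of these genes can be taken by near copies. In GENCODE M21, 21 of the 45 genes shared no 51-base window of their longest coding transcript with another gene, 15 shared under 10% and 9 shared more. Srcap shared 90.4% of its windows, with an overlapping coding gene, Gm42715, at 0.845 ± 0.469 TPM in Baf60a KO libraries and 1.52 ± 0.0789 TPM in WT libraries, and with a transcript on the other strand listed at 0. Hdac1 shared 58.5% with 3 processed pseudogenes. The most abundant of them over all 8 libraries, Gm4864, was at 1.41 ± 0.242 TPM in Baf60a KO and 1.23 ± 0.467 TPM in WT, far below Hdac1 itself. Ruvbl1 shared 55.8% with Gm5837, at 3.39 ± 0.618 TPM in Baf60a KO and 3.96 ± 1.197 TPM in WT. Kat5 shared 17.9% with its neighbour Rnaseh2c, which was more abundant than Kat5, at 41.0 ± 2.27 TPM in Baf60a KO and 37.9 ± 1.86 TPM in WT. The estimate of Rnaseh2c was in the opposite direction to that of Kat5 and did not pass either (limma adjusted p = 0.270). Ruvbl2 shared 14.5% with Lhb, listed at 0, and Gys1, at a level like its own, 52.5 ± 2.88 TPM in Baf60a KO and 48.6 ± 4.95 TPM in WT. The estimate of Gys1 was opposite to that of Ruvbl2, and neither gene passed (limma adjusted p = 0.426 for Gys1). The part of shared reads in these values was not tested. Ino80e (42.6%), Smarca5 (35.0%), Rbbp4 (33.7%) and Rbbp7 (14.8%) were the others. How the authors' counting divided reads among such genes is not given in the sources used here, so the values of these 9 genes are less certain than the rest. Chd9 shared 0.518%.

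Genes that work with these complexes, listed together with 13 other SNF2 family ATPases, gave 4 calls. Of 57 named, 56 were found and 55 tested. In this list 1 rose, 3 fell and 51 did not pass, with a median log2 fold change of -0.02. That is 7.27% called, beside 5.61% over all genes tested. By part, the share called was 0 of 9 ISWI and NuRD partners and 10% of 20 INO80, SRCAP and TIP60 genes. It was 15.4% of 13 histone and chaperone genes and 0 of the 13 ATPases. Yy1, the DNA-binding subunit of INO80, rose. It was at 27.78, 30.18, 29.38 and 27.94 TPM in Baf60a KO libraries and at 21.75, 24.00, 22.19 and 23.16 TPM in WT libraries, with no overlap (log2 fold change 0.33, SE 0.050, limma adjusted p = 0.0125). Yy1 passed in all 20 alternative fits, with adjusted p between 0.0090 and 0.0490. Uchl5, a deubiquitinase that binds both INO80 and the proteasome, fell to 31.36, 33.62, 33.87 and 30.55 TPM in Baf60a KO libraries, against 40.43, 39.82, 36.64 and 41.24 TPM in WT libraries (log2 fold change -0.28, limma adjusted p = 0.0278). The other INO80, SRCAP and TIP60 genes of the list, 18 of 20, did not pass, so that Yy1 was higher and Uchl5 lower among subunits that were close in both genotypes.

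The other genes that fell are a partner and a substrate. Cdca7, which recruits Hells to chromatin, was at 5.88, 6.0, 5.85 and 6.52 TPM in Baf60a KO libraries and at 7.27, 8.92, 8.01 and 7.67 TPM in WT libraries (log2 fold change -0.34, limma adjusted p = 0.0346). H3f3b, one of a pair of genes for a replication-independent histone H3 variant, was at 585.16, 566.74, 447.88 and 562.54 TPM in Baf60a KO libraries and at 832.52, 776.87, 638.31 and 740.54 TPM in WT libraries (log2 fold change -0.47, limma adjusted p = 0.0382). Neither gene's groups overlapped. The other gene of that pair, H3f3a, encodes the same protein and was at 700 ± 10.4 TPM in Baf60a KO and 649 ± 30.1 TPM in WT, which did not pass (limma adjusted p = 0.155). H3f3b shares 8.16% of its windows with 3 other genes. Leaving out single libraries ended these calls more often than not: Uchl5 stayed called without WT library 1 or WT library 3, Cdca7 without WT library 1 and H3f3b without WT library 3, and each was lost without any other single library.

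Lists of neighbouring complexes gave shares of the same order. Of the 13 other SNF2 family ATPases, already counted with the further genes above, 0 passed in the limma fit. An unadjusted p under 0.05 was found for 1 of them. Of 26 SWI/SNF genes tested beside Smarcd1, 1 fell (3.85%). It was Dpf2, a histone-reading BAF subunit, at 75.01, 85.11, 79.69 and 77.34 TPM in Baf60a KO libraries and 101.7, 97.38, 85.49 and 98.21 TPM in WT libraries (log2 fold change -0.27, limma adjusted p = 0.0453). Of 28 Polycomb genes tested, 1 fell (3.57%). It was Ezh2, the methyltransferase that works with Rbbp4 and Rbbp7 in the complex PRC2, at 20.42, 20.01, 19.58 and 20.70 TPM in Baf60a KO libraries and 24.12, 25.41, 22.40 and 23.28 TPM in WT libraries (log2 fold change -0.23, limma adjusted p = 0.0383). For both genes every Baf60a KO library was below every WT library. Both calls were lost without any 1 of 7 of the 8 libraries and kept without WT library 3. The differences between these shares and that of the remodelers were not tested.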

How the data were processed

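The deposited table holds 1 TPM value per gene and library for 8 libraries, 4 Baf60a KO and 4 WT, grouped by the labels' titles and genotype. Salmon 1.2.0, bcl2fastq and build mm10 were used, per the submitters' processing notes; neither the transcript annotation nor the step from transcripts to genes is given in the sources used here. The values themselves gave the unit: each library deposited by the authors has the same sum within rounding, as TPM does. Depth is not kept in TPM, so counting error is unknown, and a large change in some transcripts shifts every other value.

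Identifiers were matched to GENCODE M21 (55240 matched, 181 did not). No 2 columns were identical. Genes above 1 TPM in 4 or more libraries were compared as log2(TPM + 1), which makes changes of low genes look smaller, with limma 3.58.1 in R 4.3.3, a mean-variance trend and no term but genotype. Benjamini-Hochberg adjustment ran over the 13933 genes tested. A count test had been named in case the table held counts, and was not used. The steps were tested on simulated data. Alternatives covered the pseudocount (0.5 and 0.1), the filter (none, or a mean over 5 TPM), the variance model, a replicate block, 3 other scalings, library weights and libraries left out; a term for long transcripts was added after seeing the data. Shared windows are runs of 51 bases, as long as 1 read per the labels' protocols.

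The genes of the set, the further lists and the pairs were chosen with earlier results of these data known. Values in every library are given for genes that passed, other than cell type markers, for the ATPases Smarca5, Chd4, Ino80, Ep400 and Srcap and for genes with adjusted p under 0.10, and group means for every other gene of the set; per-library values of Smarca1, Chd3, Rsf1, Hdac1, Ino80b, Trrap and Kat5 were added after their values were seen. Promoter sequences are from RefSeq. One named partner symbol, Bap18, was not matched, and Chd5 was not tested.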

Additional observations from a re-analysis of the deposited data

Results flagged for a closer look

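In 132 groups of 4 libraries of 1 genotype, the gap of the highest or lowest value to its neighbour was set against the whole range of the group. The share of the range passed Dixon's 95% critical value in 9 of them, and chance gives about 1 in 20 such groups. Among levels, a single library stood apart for Chrac1 in WT (24.23 TPM), Ino80d in WT (2.04 TPM), Ep400 in WT (18.04 TPM), Atrx in Baf60a KO (36.07 TPM) and H3f3b in Baf60a KO (447.9 TPM). Among ratios within a library, a single library stood apart for Mta3 over Mta2 in Baf60a KO (0.7108), and in WT for Smarca1 over Smarca5 (0.03474), Gatad2b over Gatad2a (0.2972) and Ep400 over Srcap (0.7703). The values of Ep400 and of Smarca1 over Smarca5 come from the same library, WT 2, those of Chrac1 and of Gatad2b over Gatad2a from WT 4, and those of H3f3b and of Mta3 over Mta2 from Baf60a KO 3. H3f3b is the only one of these that passed the test between genotypes, and it stood out on the side away from WT, so that the other 3 Baf60a KO libraries are nearer to WT.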

How the results depend on the processing

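None of the 43 remodeler genes that did not pass was called in any of the 20 alternatives (with a mean over 5 TPM, 42 of the 44 genes were tested); the sign of 17 of the 44 estimates changed in at least 1 alternative. The count of remodeler genes that rose was 0, not 1, with no filter on low values, no mean-variance trend, the replicate block, median-of-ratios scaling, quantile normalization, library weights, WT libraries 3 and 4 left out together, and the term for long transcripts, and 0 to 1 without single libraries; the cause was not tested. Over all genes, 613 higher and 169 lower became 292 and 72 with no filter, 146 and 63 with the replicate block, 530 and 408 with median-of-ratios scaling, 440 and 254 with quantile normalization, 598 and 321 with scaling to the protein-coding total, and 201 and 171 with WT libraries 3 and 4 left out together. Without single libraries they were 120 to 532 and 36 to 235. The further pathway genes that fell numbered 1, not 3, with no filter and with the replicate block, and 0 to 2 without single libraries. The median of the 44 log2 fold changes was -0.01, and -0.05 with median-of-ratios scaling, where 12 were positive and 32 negative, -0.08 without WT libraries 3 and 4, and 0.02 without WT replicate 2. Residuals of Baf60a KO and WT libraries correlated between -0.11 and 0.01 for equal replicate numbers and between -0.13 and 0.11 for unequal ones. These correlations cannot show whether libraries share a mouse, culture or day, and the labels do not say. TPM values hold no depth, and 4 libraries per genotype limit the precision to the intervals given.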
